A study of Mus musculus with 8 samples.

Results

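The core of the Hippo pathway, a kinase cascade with its scaffolds and membrane adaptors, was followed at the transcript level in left ventricle. Its 10 genes (Stk4, Stk3, Sav1, Lats1, Lats2, Mob1a, Mob1b, Nf2, Frmd6 and Amot) were chosen by symbol, with earlier results of these data known. Each was found once among the 55385 genes of the deposited table. RNA-seq was run on 4 Mst1-TG libraries, from animals that bear an Mst1 transgene and are labelled as having experimental dilated cardiomyopathy, and on 4 WT libraries, from non-transgenic littermates labelled as controls, all male and of strain C57BL6. The transgene is driven by the alpha-myosin heavy chain promoter, so that the added kinase is restricted to cardiomyocytes while the RNA is that of whole left ventricle. The kinase called Mst1 is the product of mouse Stk4. The age is uncertain, being 3 weeks in the design text and 3 months in the protocol for RNA, while the growth protocol names both 3-week and 5.5-month mice.

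In this cascade the MST kinases (Stk4 and Stk3), held by the scaffold Sav1, phosphorylate the LATS kinases (Lats1 and Lats2) and their MOB1 coactivators. Active LATS kinases phosphorylate the transcriptional coactivators YAP and TAZ and so keep them out of the nucleus, where they would otherwise drive genes together with TEAD factors. Nf2, Frmd6 and Amot act nearer to the membrane and bring the kinases together at cell junctions. In the heart the pathway is known for restraining cardiomyocyte proliferation.

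The libraries held 21435063 to 22355197 counts in Mst1-TG and 21193536 to 23809256 counts in WT. Mitochondrially encoded genes took 13.6% ± 0.676 of the counts in Mst1-TG and 22.9% ± 1.11 in WT (SD, n = 4 each; two-sided exact permutation test, p = 0.0286, the smallest p that 4 against 4 allows). All 10 members passed the filter on low counts, and the 9 members other than Stk4 had 174 to 3478 counts per library. Levels below are CPM, counts scaled to a common library size with TMM factors, log2 fold changes are Mst1-TG over WT ± SE, and a call is an edgeR adjusted p below 0.05 over the 15314 genes tested. Cardiomyocyte markers marked the tissue as labelled, with a summed level over 12 genes of 36728 to 49476 CPM in Mst1-TG and 56611 to 67644 CPM in WT. Of the 12, 8 were lower in Mst1-TG and the other 4 did not pass. In tissue RNA, fewer cells of a type, less RNA per cell and changes of single genes cannot be told apart.

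Of the 10 members, 5 were higher in Mst1-TG (Stk4, Sav1, Lats1, Frmd6 and Amot), none was lower and 5 did not pass (Stk3, Lats2, Mob1a, Mob1b and Nf2). Among all genes tested 21.2% were called higher and 21.1% lower, and without Stk4 the members higher were 4 of 9. Stk4 stood far apart from the rest, whose fold changes ran from 0.964 to 1.52. Without Stk4 the members had a median log2 value of 0.23, against 0.01 over all genes tested. In the 5 members called, every Mst1-TG library lay above every WT library, which was so for 20.2% of all genes tested, and no member had all its Mst1-TG libraries below WT (20.1% of all genes).

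**Figure D1:**
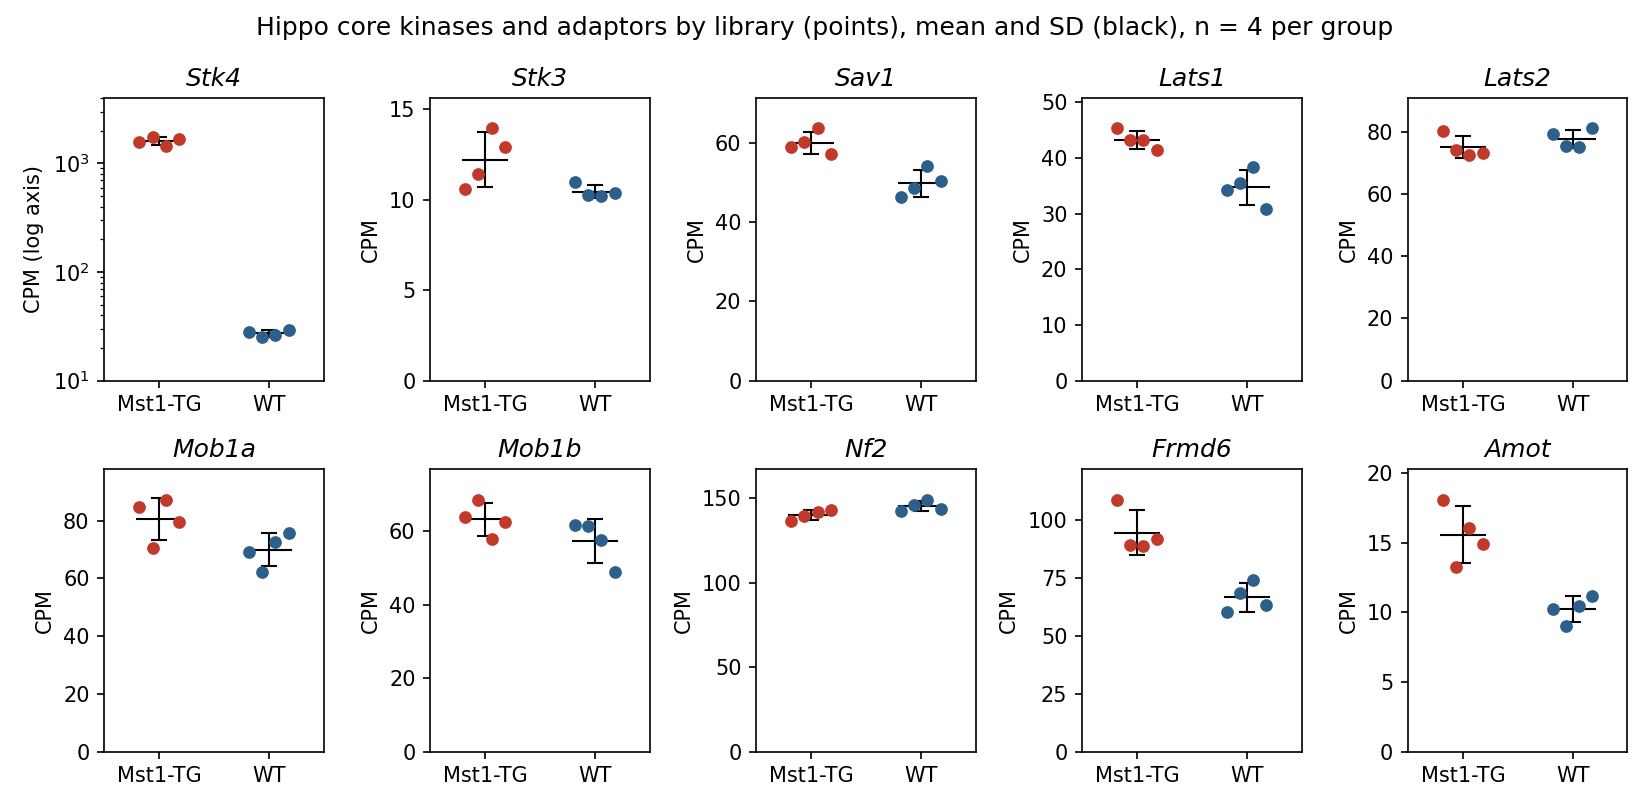
CPM of the 10 members in each library (points), with Mst1-TG left of WT and the mean and SD of the 4 libraries of a group in black; the axis of Stk4 is logarithmic and the others start at 0. Stk4 lies between 1449 and 1747 CPM in Mst1-TG and between 25.2 and 29.6 CPM in WT, while Nf2 and Lats2 libraries of the 2 groups overlap.

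Stk4 encodes the kinase that the transgene adds. The gene spans chr2:164070322-164155524, forward strand (GRCm38, GENCODE M21, as for the genes below). Its level was 1563, 1747, 1449 and 1673 CPM in the Mst1-TG libraries and 27.8, 25.2, 26.3 and 29.6 CPM in the WT libraries. The groups were separated by a gap far wider than the spread within either, and the rise was 59.0-fold (95% interval 50.8 to 68.6; log2 5.88 ± 0.10, edgeR adjusted p = 8.1e-13). In Mst1-TG, Stk4 took 0.164% to 0.189% of all counts in a library. Within Mst1-TG its coefficient of variation was 8.11%, and within WT 6.90%. None of the 5828 stretches of 31 bases in its annotated transcripts occurred in a transcript of another gene, which bears on the count because the submitters' tool assigns reads by such short words. Counts per gene do not separate the transgene from the endogenous gene, and the labels do not give the sequence or species of the transgene.

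Stk3 (chr15:34875496-35178921, reverse) encodes MST2, the close relative of the kinase that was added. Its level was 10.6, 11.4, 13.9 and 12.9 CPM in Mst1-TG and 11.0, 10.2, 10.2 and 10.4 CPM in WT. Mst1-TG 1 lay inside the range of the WT libraries and the other 3 above it. The fold change was 1.17 (95% interval 0.998 to 1.37) and did not pass (log2 0.23 ± 0.11, edgeR adjusted p = 0.104). Of 8 fits with 1 library left out it passed in 1, that without Mst1-TG 1 (0.29, edgeR adjusted p = 0.0419). Without Mst1-TG 3 it was 0.16 (edgeR adjusted p = 0.287). Sav1 (chr12:69965012-69987002, reverse) encodes the scaffold that binds the MST kinases and links them to LATS. Its level was 59.0, 60.2, 63.7 and 57.1 CPM in Mst1-TG and 46.3, 48.5, 54.3 and 50.3 CPM in WT, with no overlap. It rose by 0.27 ± 0.07 on the log2 scale (95% interval 0.12 to 0.41, edgeR adjusted p = 0.0054). Sav1 shares 25.0% of its 31-base words with Atl1, whose exons overlap its own by 1336 bases on the opposite strand, and how strand was handled is not stated. Atl1 counts amounted to 12.2% of those of Sav1 over all libraries and were also more numerous in Mst1-TG (751) than in WT (451), and the part of Atl1 in the Sav1 count was not tested.

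Lats1 (chr10:7681214-7716460, forward) and Lats2 (chr14:57689662-57758388, reverse) encode the kinases that phosphorylate YAP and TAZ. Lats1 was at 45.3, 43.2, 43.1 and 41.4 CPM in Mst1-TG and at 34.2, 35.4, 38.3 and 30.9 CPM in WT. The lowest Mst1-TG library was above the highest WT library, and Lats1 rose 1.25-fold (log2 0.32 ± 0.07, 95% interval 0.16 to 0.47, edgeR adjusted p = 0.0032). Lats2, which in cultured mammalian cells is also a target gene of YAP, was at 80.3, 74.3, 72.5 and 73.3 CPM in Mst1-TG and at 79.4, 75.3, 75.1 and 81.1 CPM in WT. Mst1-TG 1 was as high as the WT libraries and the other 3 lay just below them. Lats2 did not pass, at 0.966-fold with a 95% interval of 0.884 to 1.06 (log2 -0.05 ± 0.06, edgeR adjusted p = 0.53). A large part of Lats2, 41.8% of its 31-base words, also occurs in other genes, almost all of it in the overlapping model Gm49361 on the same strand. That model received 0 counts in the 4 Mst1-TG libraries and 14 in the 4 WT libraries, against 7231 and 6328 for Lats2.

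MOB1 proteins, from Mob1a (chr6:83326016-83343776, forward) and Mob1b (chr5:88720855-88764220, forward), bind LATS kinases and support their activation. Mob1a was at 84.7, 70.6, 87.3 and 79.5 CPM in Mst1-TG and at 69.0, 62.4, 72.6 and 75.8 CPM in WT. Mst1-TG 2 fell among the WT libraries, and the fold of 1.15 (95% interval 1.02 to 1.30) missed the threshold (log2 0.20 ± 0.08, edgeR adjusted p = 0.0565). Mob1a passed without Mst1-TG 2 (0.26, adjusted p = 0.0134), without WT 4 (0.24, adjusted p = 0.0396) and under 4 other settings, so its call rests on the setting. Mob1b was at 63.8, 68.7, 58.0 and 62.6 CPM in Mst1-TG and at 61.8, 61.4, 57.6 and 49.0 CPM in WT. The Mob1b libraries of the groups overlapped, with WT 4 the lowest, and the difference did not pass (log2 0.14 ± 0.08, 95% interval -0.04 to 0.31, edgeR adjusted p = 0.191).

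Nf2 (chr11:4765845-4849536, reverse) encodes merlin, which recruits LATS to the membrane. It was the most abundant member in CPM in WT and varied least, with coefficients of variation of 2.02% in Mst1-TG and 2.06% in WT. Its level was 136, 139.7, 142 and 143 CPM in Mst1-TG and 143, 146, 149 and 144 CPM in WT. Mst1-TG 4 reached into the WT range, and Nf2 did not pass, with a 95% interval of 0.888 to 1.05 around a fold of 0.964 (log2 -0.05 ± 0.05, edgeR adjusted p = 0.466).

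Frmd6 (chr12:70825514-70902234, forward) encodes a FERM-domain protein, the mammalian relative of fly Expanded, and Amot (chrX:145446425-145505181, reverse) a scaffold of tight junctions that binds YAP. Frmd6 was at 109, 89.2, 88.4 and 91.4 CPM in Mst1-TG and at 60.1, 68.4, 74.0 and 63.4 CPM in WT. All Mst1-TG libraries were above WT, Mst1-TG 1 most of all, and Frmd6 rose 1.42-fold (95% interval 1.25 to 1.61, edgeR adjusted p = 2.9e-04). Without Mst1-TG 1 the log2 fold change was 0.43 (edgeR adjusted p = 5.3e-04), against 0.51 ± 0.08 with it. A pseudogene, Gm5780, shares 17.2% of the Frmd6 words and was listed at 0 counts in all libraries. Amot was at 18.1, 13.2, 16.02 and 14.9 CPM in Mst1-TG and at 10.2, 8.99, 10.5 and 11.2 CPM in WT. The groups did not overlap, and after Stk4 Amot had the largest fold of the members, 1.52 (95% interval 1.29 to 1.80; log2 0.61 ± 0.11, edgeR adjusted p = 7.2e-04).

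Fibroblast markers were higher in the same libraries. Of 12 such genes 11 rose and 1, Gsn, did not pass, and their summed level was 9002 to 11038 CPM in Mst1-TG and 4497 to 5421 CPM in WT. Mst1-TG 1, the library with the highest Frmd6 and Amot, also had the highest fibroblast sum. Other libraries did not all follow this order. WT 3 had the highest Frmd6 of its group and the lowest fibroblast sum, whereas WT 4 had the highest Amot of its group and the highest sum. The summed endothelial markers were at 1702 to 2532 CPM in Mst1-TG and 2178 to 2732 CPM in WT, with 0 of 10 higher and 3 lower. Of 9 leukocyte markers tested none passed, with sums of 234 to 312 CPM in Mst1-TG and 209 to 295 CPM in WT, and the T-cell gene Cd3e was near 0 in both groups (0.197 and 0.160 CPM on average). Of 8 markers of pericytes and smooth muscle 1 was higher and 3 lower, with sums of 1284 to 1575 CPM in Mst1-TG and 1742 to 2090 CPM in WT. Among 6 epicardial markers 1 was higher, with sums of 25.1 to 44.8 CPM in Mst1-TG and 19.9 to 30.5 CPM in WT. None of 5 erythroid genes and not the 1 adipocyte gene tested passed, and of 4 Schwann cell genes 1 was lower. The part of these cell types in the members' differences was not tested.

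**Figure D2:**
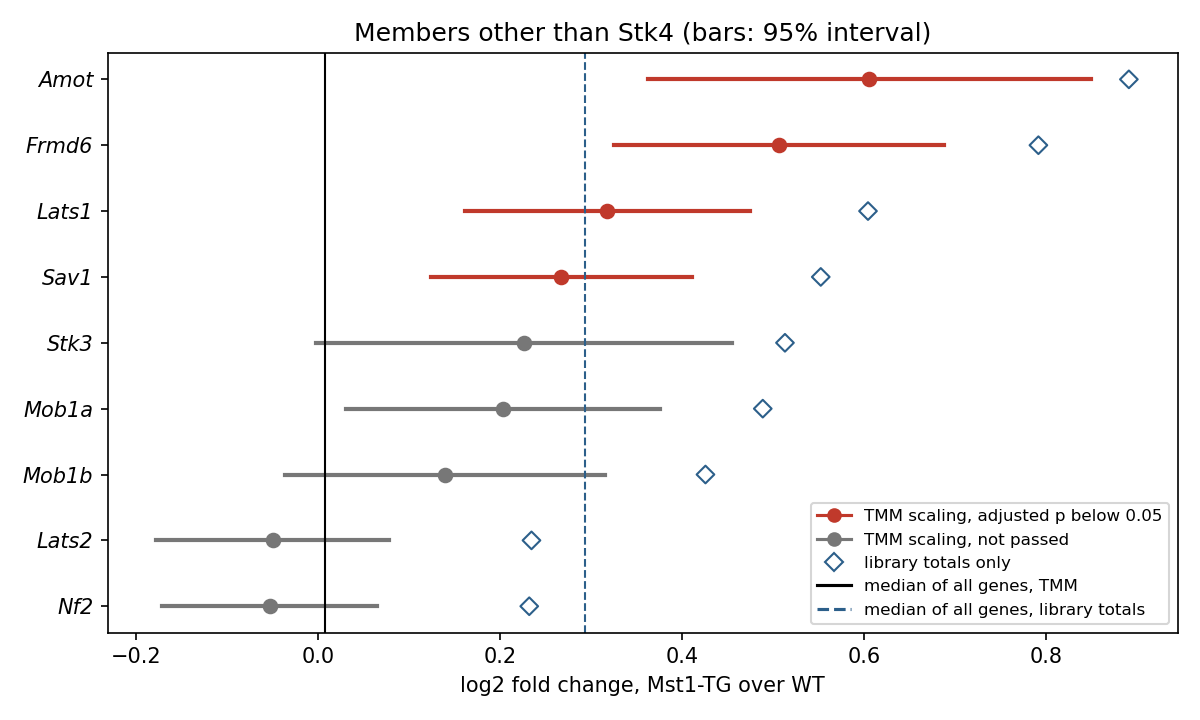
Log2 fold change (Mst1-TG over WT) of the 9 members other than Stk4, with the 95% interval under TMM scaling (filled, red where the edgeR adjusted p was below 0.05) and the value with library totals as the only scaling (open diamonds); vertical lines mark the median of all genes tested under each scaling. Lats2 and Nf2 lie at -0.05 with TMM and at 0.23 with library totals, each below the median of all genes under the same scaling.

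The direction of the smallest changes depends on how libraries are scaled, since library totals alone moved the median of all genes by 0.29 on the log2 scale. With library totals all 10 members were called higher, Lats2 and Nf2 included (0.23 each, in place of -0.05), as were 48.4% of all genes tested. Since a change of scaling shifts all genes nearly alike, the members kept their places relative to the median of all genes, whatever their values. Amot was 0.60 above that median under both scalings and Frmd6 0.50, while Lats2 and Nf2 were 0.06 below it under both. Against a minimum change of 1.2-fold, 3 members remained higher (Stk4, Frmd6 and Amot), while Sav1 and Lats1 did not pass (edgeR adjusted p = 0.505 and 0.246). Of all genes tested, 12.4% were called higher against that minimum.

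Ratios of paralogues within a library do not depend on scaling, and the partners of the 3 pairs had no 31-base word in common. The count ratio of Lats2 to Lats1 was 1.77, 1.72, 1.68 and 1.77 in Mst1-TG and 2.32, 2.13, 1.96 and 2.63 in WT. All Mst1-TG libraries lay below all WT libraries, and the ratio was lower by a factor of 0.773 (log2 difference -0.37; two-sided exact permutation test, p = 0.0286, 0.0429 adjusted over the 3 pairs). Without any 1 of the Mst1-TG libraries the exact p was 0.0571, with log2 differences from -0.38 to -0.36. The SD of the log2 ratio was 0.04 in Mst1-TG and 0.18 in WT. Per exon length, Lats2 made up 64.5% ± 0.591 of the LATS transcripts in Mst1-TG and 70.1% ± 2.6 in WT (SD, n = 4 each). These shares depend on the length used, since by median transcript length Lats2 and Lats1 were at 102 and 12.2 TPM in Mst1-TG and at 83.4 and 7.69 TPM in WT. Stk4 exceeded Stk3 by a count ratio of 147, 153, 104 and 129 in Mst1-TG and of 2.53, 2.46, 2.59 and 2.85 in WT. Mst1-TG 3, with the lowest Stk4 and the highest Stk3, had the lowest ratio of its group. The difference between groups was 5.66 on the log2 scale (exact permutation test, p = 0.0286, 0.0429 adjusted). Because the transgene adds Stk4, the outcome of this test was given by the design. It is 1 of the 3 tests behind the adjustment. The adjusted value for Lats2 over Lats1 is below 0.05 only because this test is counted. Per exon length Stk4 made up 99.3% ± 0.133 of the MST transcripts in Mst1-TG and 73.1% ± 1.23 in WT (SD, n = 4 each), and the WT share too depends on the length, with Stk4 and Stk3 at 35.9 and 3.72 TPM by median transcript length. For Mob1b over Mob1a the log2 ratio averaged -0.35 ± 0.23 in Mst1-TG and -0.29 ± 0.26 in WT (SD, n = 4 each), and the groups overlapped almost fully (difference -0.06, exact permutation test, p = 0.771).

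**Figure D3:**
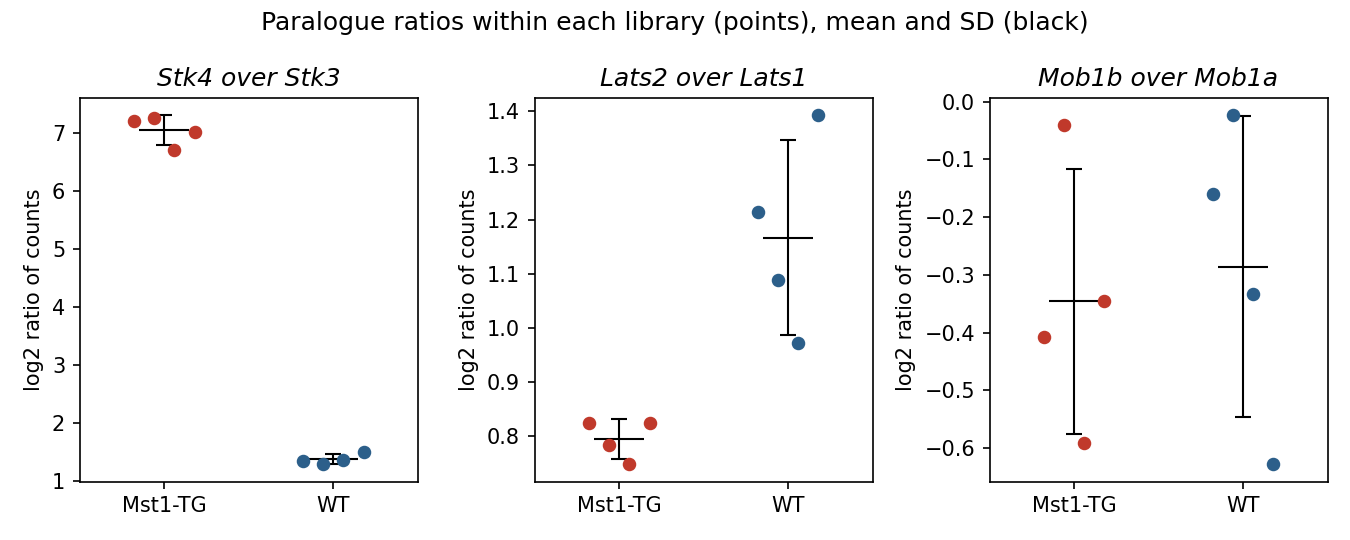
Log2 ratio of the counts of 2 paralogues within each library (points), with Mst1-TG left of WT and the mean and SD in black; each panel has its own axis. The Lats2 over Lats1 ratios run from 0.75 to 0.83 in Mst1-TG and from 0.97 to 1.39 in WT, without overlap, while those of Mob1b over Mob1a overlap.

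Levels of different genes were compared within a group only, on the TPM scale, from counts over the length of the union of annotated exons. In Mst1-TG, Stk4 led with 755 ± 40.4 TPM (SD, n = 4), on the length of the endogenous gene, and ranked 113 among all genes. Nf2 followed with 56.6 ± 1.86, Mob1a with 46.4 ± 5.46 and Frmd6 with 40.7 ± 4.6 TPM, the last 2 with overlapping libraries. Sav1 (31.4 ± 2.28 TPM) and Lats2 (29.7 ± 1.79 TPM) also overlapped in Mst1-TG. Lats1 (16.3 ± 0.969 TPM) and Mob1b (11.6 ± 0.607 TPM) came after them, each clear of its neighbours. Stk3 (5.51 ± 0.757 TPM) and Amot (5.11 ± 0.779 TPM) were lowest in Mst1-TG and overlapped.

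In WT the order began with Nf2 at 40.7 ± 1.96 TPM and Mob1a at 27.9 ± 3.35 TPM, which did not overlap. Lats2 (21.3 ± 1.52 TPM), Frmd6 (19.9 ± 2.05 TPM) and Sav1 (18.1 ± 1.75 TPM) came next and overlapped from each to the next. Lats1 (9.06 ± 0.71 TPM) and Stk4 (8.88 ± 0.932 TPM, rank 6577 among all genes) were indistinguishable in WT. Mob1b (7.27 ± 0.463 TPM), Stk3 (3.26 ± 0.137 TPM) and Amot (2.33 ± 0.293 TPM) closed the order without overlap. The order depends on the length used. Dividing by the median transcript length of a gene instead put Lats2 after Stk4 and Nf2 and before Mob1a in Mst1-TG (102 TPM, with Sav1 at 28.0 TPM). In WT it put Lats2 between Nf2 and Mob1a and moved Stk4 to the fourth place (35.9 TPM), after Mob1a.

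**Figure D4:**
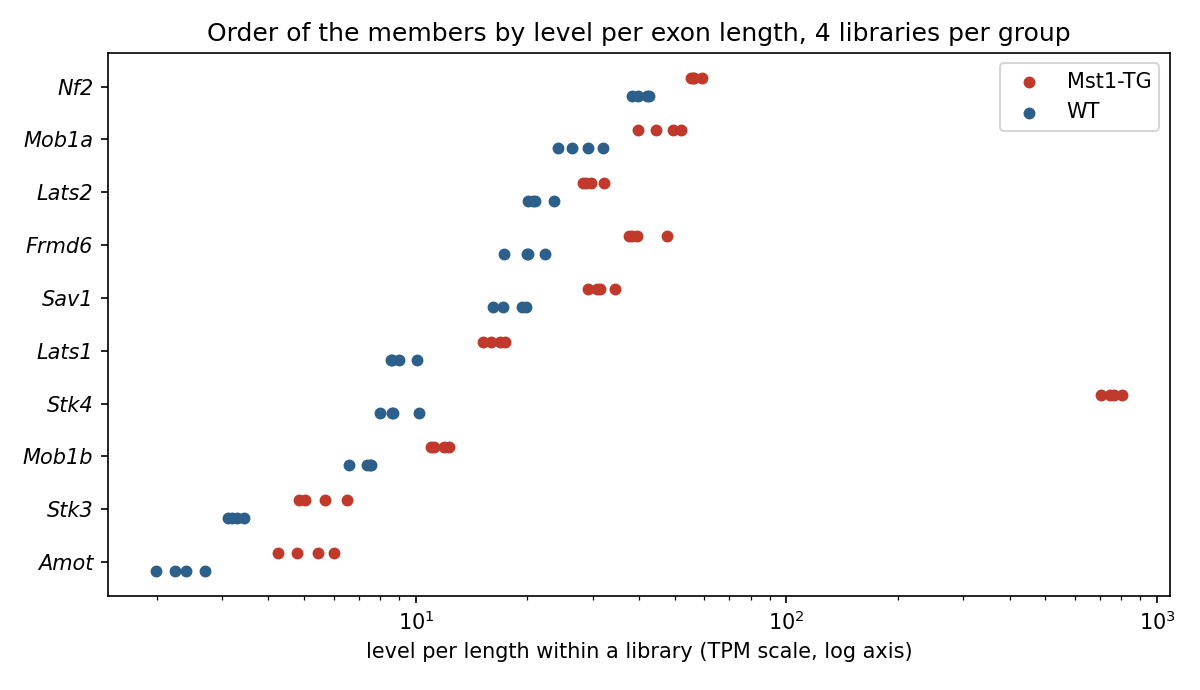
Level per exon length (TPM scale, log axis) of each member in the 4 Mst1-TG libraries (red, upper row) and the 4 WT libraries (blue, lower row), ordered by the WT mean; the axis serves to order genes within a group, since the mitochondrial share of counts differed between groups. Stk4 is at 706 to 803 TPM in Mst1-TG and averages 8.88 TPM in WT, where it lies beside Lats1.

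The promoters of the members were read for the core motif of TEAD factors, the DNA-binding partners of YAP and TAZ. RefSeq windows on GRCm38.p6, from 250 bases before to 50 after a start of transcription, were at hand for 9 of the 10 genes (11 windows), and Stk3 had none. The motif searched was GGAATG on either strand, read as GGAATG or CATTCC, which do not overlap with each other in these windows. It occurred in 3 of the 11 windows, those of Sav1, Mob1a and 1 of the 2 windows of Lats2, and in 14.7% of the 32851 windows of all genes. The Sav1 window is chr12:69986953-69987252 on the reverse strand, the Mob1a window chr6:83325789-83326088 on the forward strand, the Lats2 window chr14:57746074-57746373 on the reverse strand and the Amot window chrX:145487590-145487889 on the reverse strand. The first 3 are shown because they hold the match, in capitals. That of Amot is shown because Amot is the member with the largest fold after Stk4 and its window holds none. The windows of Amot and Stk4, and each of the 2 windows of Lats2, lie wholly inside the gene spans given above. The outermost annotated start of those genes was therefore not read.
Sav1: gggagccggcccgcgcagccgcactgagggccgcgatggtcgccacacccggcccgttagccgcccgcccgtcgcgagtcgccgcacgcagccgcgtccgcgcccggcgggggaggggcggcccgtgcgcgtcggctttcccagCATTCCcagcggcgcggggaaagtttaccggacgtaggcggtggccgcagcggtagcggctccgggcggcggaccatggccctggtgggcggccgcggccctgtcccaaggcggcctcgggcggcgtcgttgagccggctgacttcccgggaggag
Mob1a: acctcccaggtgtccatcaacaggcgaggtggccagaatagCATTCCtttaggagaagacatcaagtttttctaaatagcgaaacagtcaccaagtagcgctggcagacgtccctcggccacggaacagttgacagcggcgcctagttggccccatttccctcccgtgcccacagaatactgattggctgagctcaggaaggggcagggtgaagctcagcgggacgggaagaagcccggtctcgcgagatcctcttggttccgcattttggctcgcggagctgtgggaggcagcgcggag
Lats2: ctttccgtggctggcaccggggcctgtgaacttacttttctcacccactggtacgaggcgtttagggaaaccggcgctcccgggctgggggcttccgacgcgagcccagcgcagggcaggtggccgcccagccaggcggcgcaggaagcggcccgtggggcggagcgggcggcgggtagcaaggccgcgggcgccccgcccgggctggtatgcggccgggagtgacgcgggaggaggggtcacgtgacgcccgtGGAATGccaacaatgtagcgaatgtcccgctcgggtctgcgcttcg
Amot: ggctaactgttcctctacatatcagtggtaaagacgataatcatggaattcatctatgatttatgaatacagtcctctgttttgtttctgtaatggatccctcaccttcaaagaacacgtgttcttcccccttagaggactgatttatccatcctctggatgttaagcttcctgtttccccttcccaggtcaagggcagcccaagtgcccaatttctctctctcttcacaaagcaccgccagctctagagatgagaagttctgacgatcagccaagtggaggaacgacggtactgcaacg
In these windows the match begins at base 145 for Sav1, base 42 for Mob1a and base 255 for Lats2, counted from the first base, so that only that of Lats2 lies after the start. Of the 3 genes with a match, Sav1 was called higher and Mob1a and Lats2 did not pass, and of the other members called, Stk4, Lats1, Frmd6 and Amot hold no match in these windows. The windows also differ in composition, with 78.3% G and C and 50 CpG pairs for Sav1 against 46.0% and 7 for Amot. A match describes letters in a window and not a bound site, and the endogenous window of Stk4 does not drive the transgene.

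Other genes of the pathway moved in both directions. Over 6 lists without the members, 35 of 83 genes tested were higher (42.2%) and 12 lower (14.5%), against 21.2% and 21.1% of all genes, and their median log2 value was 0.15. The lists were chosen with earlier results of these data known, so these shares are a description only. With library totals 60 of these genes were higher and 1, Map4k2, was lower, whereas with RLE factors, DESeq2 and upper quartile factors 12, 12 and 10 were lower. Of the 24 pathway genes named below for the smallest p in their list, 12 did not pass against a minimum change of 1.2-fold (Map4k3, Mob3c, Rassf1, Rassf3, Rassf4, Rassf5, Limd1, Strn3, Wtip, Yap1, Vgll4 and Tead2; edgeR adjusted p = 0.0879 to 0.862). In the list of upstream regulators and junction proteins 10 of 21 genes rose and 2 fell (median 0.19). The protocadherins Fat1 and Dchs1 rose by 1.22 ± 0.08 and 0.70 ± 0.07, the polarity scaffold Dlg5 by 0.72 ± 0.07 and Taok3, a relative of the fly kinase Tao that activates Hippo, by 0.49 ± 0.09 (edgeR adjusted p = 8.7e-08, 2.6e-06, 3.8e-06 and 5.8e-04). Amotl2, a relative of Amot, was instead lower (-0.31 ± 0.07, edgeR adjusted p = 0.0036). It lost that call with library totals and against a minimum change of 1.2-fold, where Map4k2 alone stayed lower. The third member of that family, Amotl1, was at 156 CPM in Mst1-TG and 153 CPM in WT (0.03 ± 0.07, edgeR adjusted p = 0.781).

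In the list of MAP4K and NDR kinases and other MOB proteins 2 of 13 rose and 4 fell (median 0.08). Map4k2 and Map4k3, which phosphorylate LATS independently of MST, changed by -0.54 ± 0.08 and -0.33 ± 0.07 (edgeR adjusted p = 1.5e-04 and 0.0013). Map4k3 did not pass with library totals (-0.04, edgeR adjusted p = 0.583). Mob3a and Mob3c rose by 0.65 ± 0.13 and 0.41 ± 0.10. Among the RASSF scaffolds, which bind MST kinases, Rassf1 and Rassf5 were higher (0.25 ± 0.08 and 0.46 ± 0.16) and Rassf3 and Rassf4 lower (-0.36 ± 0.06 and -0.35 ± 0.13) of 5 tested. With library totals neither Rassf3 (-0.07) nor Rassf4 (-0.06) passed. The call of Rassf1 also ended without Mst1-TG 3, WT 1 or WT 2, that of Rassf4 without any 1 library other than Mst1-TG 4 and WT 4, and that of Rassf5 without any 1 other than Mst1-TG 2 and WT 4. Rassf4 did not pass with upper quartile factors (-0.30) or with a filter at 1 CPM (-0.34) either, and Rassf5 not in the replicate block (0.45, edgeR adjusted p = 0.0512).

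The STRIPAK complex, a phosphatase complex that dephosphorylates MST kinases, was listed together with the LIM proteins that restrain LATS. Of 18 genes 5 rose and 2 fell (median 0.04), with Strn (0.47 ± 0.07), Wtip (0.32 ± 0.09) and Limd1 (0.27 ± 0.07) higher and Strn3 lower (-0.21 ± 0.06). Strn3 turned to 0.072 with library totals only. In the list of YAP, TAZ, TEAD and VGLL factors, whose roles at target genes need not be alike, 5 of 8 genes tested were higher and 0 lower (median 0.23). Vgll3, a cofactor of TEAD, rose by 1.05 ± 0.16, Tead2 by 0.35 ± 0.12, Vgll4 by 0.28 ± 0.08 and Yap1 by 0.25 ± 0.06. The call of Tead2 ended without Mst1-TG 3, Mst1-TG 4, WT 2 or WT 3 (0.28 to 0.34). Of 20 YAP/TEAD target genes, of a kind compiled in human tumours, 12 rose and 3 fell (median 0.39). They were led in p by Tgfb2 (1.33 ± 0.07), Axl (0.94 ± 0.06), Ccn1 (1.14 ± 0.08) and Ccdc80 (0.97 ± 0.07). The largest rises in that list were those of Ankrd1 (2.64 ± 0.17) and Ccn2 (2.16 ± 0.17; edgeR adjusted p = 3.8e-07 and 3.6e-06). The 3 that fell were Amotl2, given above, Igfbp3 (-0.23 ± 0.07) and Arhgef17 (-0.24 ± 0.07; edgeR adjusted p = 0.0178 and 0.0162). None of these 3 stayed lower with library totals or against a minimum change of 1.2-fold. The target list and the upstream list share Amotl2 and Ptpn14, and Lats2 was left out of the targets as a member. Fibroblast markers were also higher in Mst1-TG, as given above, and their part in the differences of the target genes was not tested.

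**Figure D5:**
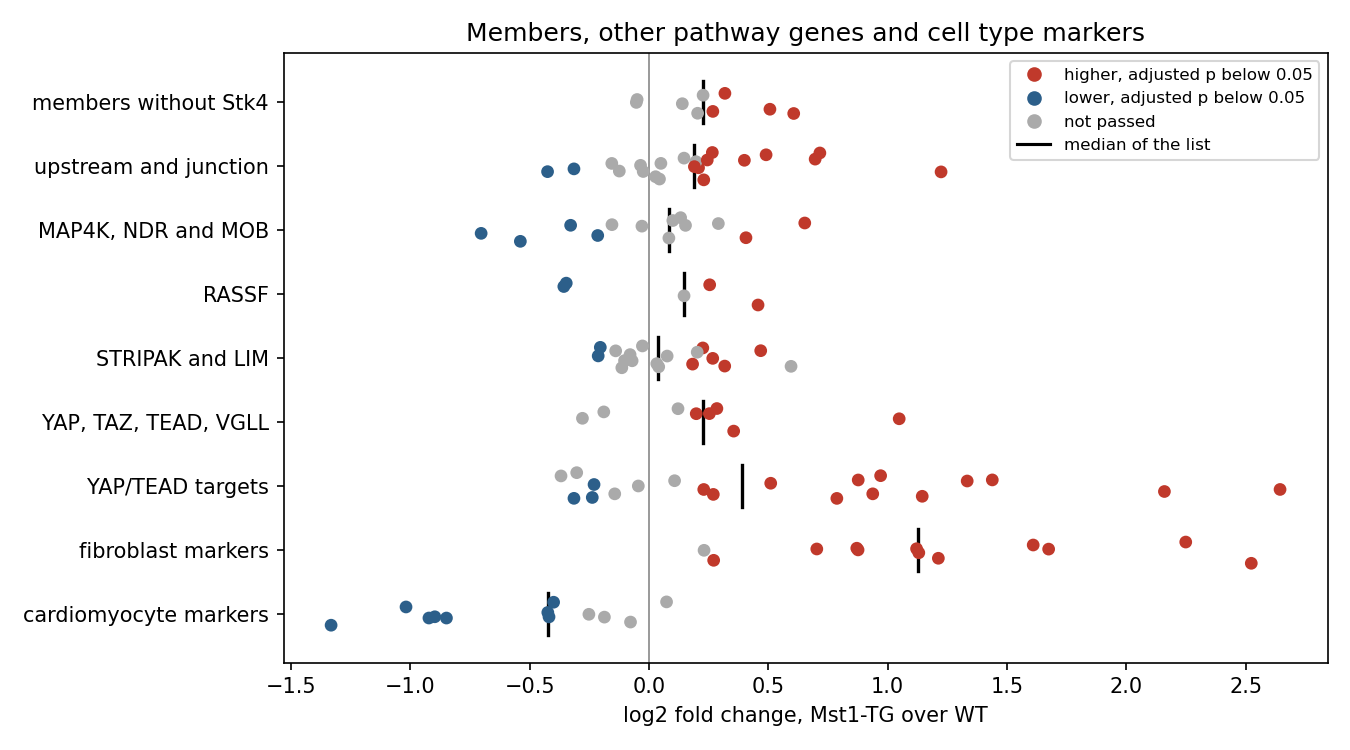
Log2 fold change (Mst1-TG over WT) of each tested gene in the members without Stk4, in 6 lists of other pathway genes and in 2 lists of cell type markers (points, red called higher, blue called lower, grey not passed), with the median of a list as a black line. The medians are 0.23 for the members, 0.39 for YAP/TEAD targets, 1.13 for fibroblast markers and -0.42 for cardiomyocyte markers.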

How the data were processed

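Left ventricular RNA was depleted of ribosomal RNA (200 ng of total RNA) and built into directional libraries, per the labels' protocols. Reads were handled with bcl2fastq 2.19.1.403 and kallisto 0.46.0, named in the submitters' processing notes. The second tool returns estimated counts per transcript. Build, annotation, strand setting and read filters: not given in the sources used here. The authors deposited estimated counts per gene as whole numbers, not scaled for library size, so rounding before the tests changed nothing. Groups came from the sample titles. Whether samples are separate animals is not labelled, and p-values thus reflect only sample-to-sample spread, which may be technical. No 2 libraries of a group agreed within sampling noise (ratio of chi-square to its degrees of freedom 7.92 to 23.4, 12 pairs).

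Counts were analysed with edgeR 4.0.16 in R 4.3.3: filterByExpr (minimum count 10, total 15; 15314 of 55385 genes tested), TMM factors (1.10 ± 0.0212 in Mst1-TG and 0.906 ± 0.0219 in WT), robust quasi-likelihood F test on group, Benjamini-Hochberg adjustment over all genes tested. Intervals of 95% use the test's total degrees of freedom. CPM are given as values per library. Alternatives used limma 3.58.1 and DESeq2 1.42.0. Paralogue log2 ratios used a pseudocount of 0.5 and an exact permutation test. Exon lengths and 31-base words came from GENCODE M21 (GRCm38), in which 55144 gene identifiers matched without version and 241 did not, and which need not be the authors' annotation. The tests were tried on simulated data. Members and gene lists were chosen with earlier results of these data known. All members are named, and of each other list up to 4 called genes with the smallest p. Amotl2, Amotl1, Ptpn14, Ankrd1, Ccn2, Igfbp3, Arhgef17, Gsn and Cd3e were named in addition, after their values were seen. Precision is limited by 4 libraries per group, with a median SE of a log2 fold change of 0.111.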

Additional observations from a re-analysis of the deposited data

Results flagged for a closer look

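Frmd6 in Mst1-TG 1 stood apart from the other libraries of its group, at 109 CPM with the nearest at 91.4 CPM. Its gap took up 0.851 of the group's range, above Dixon's critical value for 4 samples, and it was the 1 such library among 20 groups of values (10 genes in Mst1-TG and in WT), where chance gives about 1 in 20. The same library had the highest Amot, Lats1 and Lats2 of its group and the highest fibroblast sum (11038 CPM). Mst1-TG 3, with the lowest Frmd6 of the group (88.4 CPM), had a fibroblast sum of 9949 CPM, above those of Mst1-TG 2 and Mst1-TG 4. Frmd6 was also called higher without Mst1-TG 1.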

How the results depend on the processing

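Over 18 alternatives, Stk4, Frmd6 and Amot were called higher in all 18, and Sav1 and Lats1 in 17, not against a minimum change of 1.2-fold. Members higher numbered 10 with library totals and 3 against the minimum change, in place of 5; over all genes 7409 and 1897 were higher and 1592 and 1925 lower, and in the other pathway lists 60 and 17 were higher and 1 and 1 lower. With library totals Lats2 and Nf2 turned to 0.23 each and Strn3 to 0.072, by the shift of the scaling. Besides library totals, Mob1a also passed with upper quartile factors (0.25), without a count filter (0.21) and in the replicate block (0.20, adjusted p = 0.0313). Samples of the same number were not paired by the labels, and their deviations correlated at -0.16, 0.07, 0.02 and -0.02 across genes. With the replicate block 6 members were higher, as were 20% of all genes tested. With numbers as pairs the Lats2 over Lats1 and Stk4 over Stk3 ratios kept differences of -0.37 and 5.66 at p = 0.125 (exact sign-flip permutation, the smallest p that 4 pairs allow). Leaving out 1 library, the Lats2 over Lats1 difference ran from -0.44 to -0.30, with an exact permutation p = 0.0571 without any 1 of the Mst1-TG libraries, Stk4 over Stk3 from 5.59 to 5.78, and Mob1b over Mob1a from -0.17 to 0.028, positive without Mst1-TG 3 (0.022) or WT 2 (0.028). Of the 24 other named genes 12 lost their call against the minimum change and 7 under some other alternative, Rassf5 in the replicate block among them (0.45, edgeR adjusted p = 0.0512). With median transcript lengths the TPM levels in Mst1-TG became 2683 for Stk4, 28.0 for Sav1, 12.2 for Lats1, 102 for Lats2, 62.4 for Mob1a, 16.6 for Mob1b, 171 for Nf2 and 4.19 for Amot, and in WT 35.9 for Stk4, 3.72 for Stk3, 7.69 for Lats1, 83.4 for Lats2, 42.8 for Mob1a, 11.9 for Mob1b, 140.2 for Nf2 and 25.1 for Frmd6, because the lengths differ.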
